A study of Rattus norvegicus with 6 samples.

Results

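The collagen gene family was measured in whole-tissue brain RNA of SPORTS and wild type rats by 25 array probes for 18 genes, out of 30367 distinct probes and 15168 named genes on the array. Members were chosen by name: a probe counted as a collagen probe if its transcript accession belongs to a gene with a collagen chain symbol in the RefSeq gene list, a rule that uses no measured value. That list holds 44 such genes. The other 26, among them Col4a2, Col6a1, Col6a3 and Col15a1, were not matched to a probe and were not analysed here. The SPORTS line is a mutant line on a Wistar background known for hyperactivity and high voluntary running. The 3 SPORTS rats carried the genotype labelled SPORTS and the 3 controls the genotype labelled wildtype, also on a Wistar background. All 6 were sedentary males aged 15 weeks, with no treatment named in the labels. No brain region and no mutated gene are given, and nothing says whether the rats were littermates. Each rat gave 1 single-colour array; with 3 per group, precision is set by this small number.

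Collagens are extracellular proteins in which chains with a repeating glycine motif wind around each other into a rope-like helix. Fibrillar collagens form the tensile fibrils of connective tissue, type IV collagens form the sheet-like network of basement membranes, and other members decorate fibrils, form microfibrils or span the cell membrane. In brain, fibrillar collagens are known mainly from the meninges and from fibroblasts along large vessels, and type IV collagens from the basement membrane of capillaries. Neurons and glia contribute little fibrillar collagen.

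The brain label was checked against markers. The neuronal genes Snap25 and Syt1, the astrocyte genes Gfap and Aqp4 and the myelin gene Mbp were well above background on all 6 arrays. SPORTS replicate 1 stood apart: the summed signal of 9 choroid plexus markers was 71.6 there, in multiples of the array's 75th percentile, against up to 150.5 in the other SPORTS arrays and 136.2 to 144.4 in wild type. The summed signal of 6 cerebellum markers reached 4.22 on that array, against a wild type range of 1.84 to 1.998. Between 20323 and 23261 probes were well above background per array, and no spot was saturated. Wild type replicates 1 and 2 lay in row 1 of the slide and the other 4 arrays in row 2, so slide row and genotype were partly mixed. In a fit with slide row as a block, the difference of a probe therefore sets the SPORTS arrays against wild type replicate 3 alone.

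Upstream sequences of members are shown because Col1a2 had the largest called difference, Col5a3 is a fibrillar member whose groups overlapped, and Col4a1 shares its upstream stretch with Col4a2. They come from RefSeq on build GRCr8, run from 5′ to 3′ on the strand of the gene and stop at the base before the annotated start. Capitals mark the motifs CCAAT, often bound by nuclear factor Y, then TATAAA, the TATA box, and GGGCGG, the GC box, each searched on both strands. No match overlapped another here.
Col1a2, chr4:33518307-33518556, plus strand, 250 bases: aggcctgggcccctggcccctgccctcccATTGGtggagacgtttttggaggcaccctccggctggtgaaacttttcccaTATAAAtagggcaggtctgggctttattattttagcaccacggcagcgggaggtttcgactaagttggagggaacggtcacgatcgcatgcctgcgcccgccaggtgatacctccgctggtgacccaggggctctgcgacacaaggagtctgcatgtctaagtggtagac
Col5a3, chr8:27625949-27626198, minus strand, 250 bases: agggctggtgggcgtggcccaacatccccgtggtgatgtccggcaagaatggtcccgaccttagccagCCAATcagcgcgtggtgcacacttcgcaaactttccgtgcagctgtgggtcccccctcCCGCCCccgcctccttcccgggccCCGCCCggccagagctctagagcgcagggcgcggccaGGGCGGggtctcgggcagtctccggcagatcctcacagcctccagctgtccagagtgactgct
Col4a1 and Col4a2, chr16:84885521-84885596, plus strand, the 76 bases between their starts: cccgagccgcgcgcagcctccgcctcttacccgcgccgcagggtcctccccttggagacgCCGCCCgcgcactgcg
Col4a1 and Col4a2 point away from each other, so the last stretch lies upstream of both. In the Col1a2 sequence the CCAAT motif, on the minus strand, lay 221 to 217 bases before the start and TATAAA 170 to 165 bases before it. In the Col5a3 sequence CCAAT lay 182 to 178 bases before the start. Entries were found for 13 of the 18 members. Within 250 bases upstream, CCAAT on either strand was present in 3 of these 13 (Col1a2, Col4a1 and Col5a3) and in 34.0% of all 33469 promoters. TATAAA was present in 2 (Col1a2 and Col13a1) and in 12.9% of all promoters, and GGGCGG in 8 and in 30.5%. These matches describe letters only.

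Transcripts of type I and type III collagen were higher in SPORTS brain. Col1a2, Col3a1 and Col1a1, which encode the chains of types I and III collagen, rose 1.79-fold, 1.75-fold and 1.70-fold, and Col6a2, a chain of the type VI microfibrils, rose 1.34-fold. Col7a1, which encodes the collagen of anchoring fibrils, was the only gene called lower (1.29-fold), and its call was lost in 9 of 18 other settings. Of 20 collagen probes bright enough to test, 6 were higher and 2 lower, against 11.1% and 10.1% of all 20658 tested probes. Counted by gene, with the brightest tested probe standing for each gene, 4 of 16 were higher and 1 lower, against 12.9% and 11.4% of 11033 tested genes, or 24.3% in either direction. Every SPORTS array lay above every wild type array for 11 of the 20 probes (21.4% of all tested probes) and below for 4 (20.5%). The median difference of the 16 genes was 0.16 on the log2 scale, against 0.01 over all tested genes. In bulk tissue, a change in the number of cells of a type and a change in RNA per cell cannot be told apart.

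**Figure D1:**
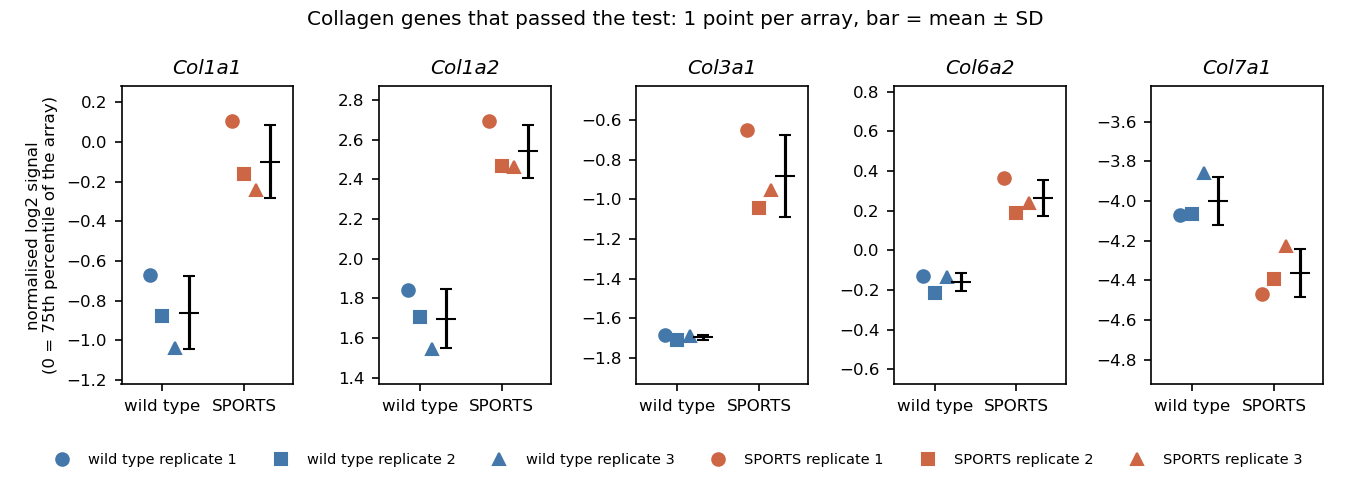
Normalised log2 signal of the 5 collagen genes that passed the test, 1 point per array (marker shape gives the replicate), with the mean ± SD (n = 3) of each group beside its points. SPORTS arrays lay above wild type arrays for Col1a1, Col1a2, Col3a1 and Col6a2 and below them for Col7a1; all panels span 1.5 log2 units, and levels of different panels are not comparable.

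Levels are given as normalised log2 signal, with 0 at the 75th percentile of all spots on an array, and a difference is SPORTS minus wild type on that log2 scale. A probe was called when the adjusted p of limma's moderated test over all tested probes was below 0.05. Levels of different probes are not comparable with each other.

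Among the fibrillar collagens, all 9 probes of 7 genes were tested, and 3 genes were higher and none lower (limma, 4 genes with an unadjusted p under 0.05), against 12.9% and 11.4% of all tested genes. The block on slide row left 2 of the 7 higher. The class had a median difference of 0.28. Col1a2 encodes the alpha 2 chain of type I collagen, the main collagen of tendon, bone and meninges. Its signal was 1.84, 1.71 and 1.54 in wild type replicates 1 to 3 and 2.69, 2.47 and 2.46 in SPORTS replicates 1 to 3. The groups did not overlap, and the gap between them was wider than the spread within either. The difference was 0.84 ± 0.10 (SE; n = 3 per group; limma adjusted p = 0.00388), and with slide row as a block it was 0.998 (adjusted p = 0.0173).

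Col1a1, the partner chain of type I collagen, was measured by a pair of probes. On probe A_64_P040278 the signal was -0.67, -0.88 and -1.04 in wild type and 0.11, -0.16 and -0.24 in SPORTS. Its difference was 0.76 ± 0.13 (SE; limma adjusted p = 0.0115). Probe A_44_P350521 read -1.43, -1.51 and -1.61 in wild type and -0.90, -1.09 and -1.10 in SPORTS. Here the difference was 0.49 ± 0.07 (limma adjusted p = 0.00843), smaller than on the first probe but in the same direction and again without overlap. In the fit that blocks on slide row the first probe was at 0.94 and the second at 0.58. Those values set the SPORTS arrays against wild type replicate 3, the lowest wild type array on both probes and also for Col1a2. On the 4 arrays of slide row 2 alone, which hold 1 wild type array, Col1a1 had an adjusted p of 0.0666.

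Col3a1 encodes type III collagen, which forms fine fibrils with type I in vessel walls and loose connective tissue. The 3 wild type arrays were close together at -1.68, -1.71 and -1.69, while the SPORTS arrays read -0.65, -1.04 and -0.95. The spread was thus almost all within SPORTS, where replicate 1 was highest. The difference was 0.81 ± 0.10 (SE; limma adjusted p = 0.00476). With slide row as a block the difference was again 0.81 but the call was lost (adjusted p = 0.0526).

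The remaining fibrillar members did not pass the test. Col5a1, a chain of type V collagen that nucleates fibrils, read -3.19, -3.32 and -3.44 in wild type and -2.93, -3.10 and -3.08 in SPORTS. These groups did not overlap, but the difference of 0.28 ± 0.08 (SE) lay just outside the threshold (limma adjusted p = 0.0534). It was inside the threshold in 5 of 18 other settings, among them normexp background correction. Col2a1, the fibrillar collagen of cartilage, overlapped between groups, with wild type arrays from -4.70 to -4.14 and SPORTS arrays from -4.22 to -4.13.

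Col5a3, another type V chain, read -0.44, -0.43 and -0.40 in wild type and -0.42, -0.46 and -0.41 in SPORTS. The 95% interval of its difference ran from -0.09 to 0.07, so that a change of the size seen for Col1a2 lay outside it. Col11a2, a type XI chain that limits fibril diameter, had an interval from -0.13 to 0.11 on its brighter probe (A_44_P527024). Its dimmer probe, A_64_P106598, gave a difference of -0.10 ± 0.04 (SE; limma adjusted p = 0.125), with every SPORTS array below every wild type array. The intervals of Col5a3 and Col11a2 did not overlap those of Col1a1, Col1a2 and Col3a1, whose lowest bound was 0.31.

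**Figure D2:**
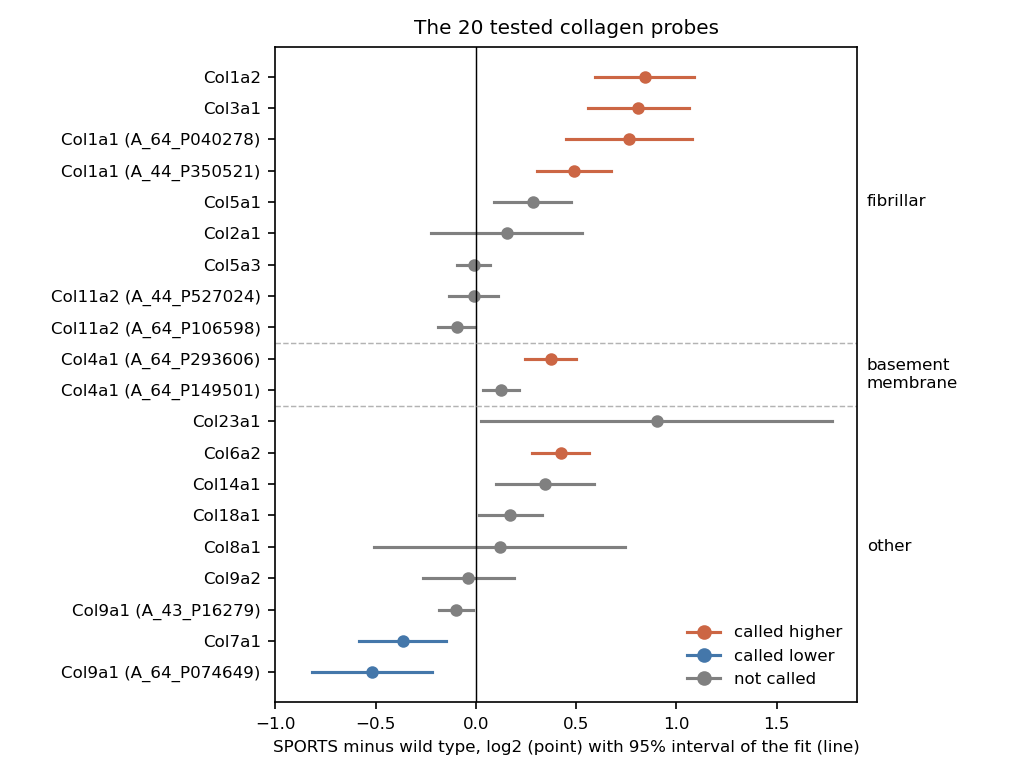
Difference between SPORTS and wild type (log2, point) with its 95% interval from the fit (line) for the 20 tested collagen probes, grouped by class and coloured by call. The 4 probes of Col1a1, Col1a2 and Col3a1 lie right of 0 with intervals starting at 0.31 or above, while Col5a3 and the brighter Col11a2 probe sit at 0.

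Type IV collagens, the network-forming class of basement membranes, were represented by Col4a1 and Col4a4 only. Col4a1 encodes a chain of the type IV network found in the basement membrane of brain capillaries. On its brighter probe, A_64_P149501, the signal was -0.72, -0.76 and -0.69 in wild type and -0.61, -0.57 and -0.61 in SPORTS. The groups did not overlap, but the difference was small, 0.13 ± 0.04 (SE), and it did not pass (limma adjusted p = 0.0612). The dimmer probe, A_64_P293606, read -5.03, -4.97 and -4.95 in wild type and -4.59, -4.70 and -4.55 in SPORTS.

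The difference on that dimmer probe was 0.37 ± 0.05 (SE; limma adjusted p = 0.00641), and it was called higher. With normexp its size was 0.16, and with slide row as a block its call was lost (adjusted p = 0.0697). Both Col4a1 probes were higher in every SPORTS array, and they differed in size and in call. Col4a4, a chain best known from kidney and inner ear, was well above background on 2 of 3 arrays of each group and was not tested. It ranged from -6.20 to -5.61 in wild type and from -6.09 to -5.27 in SPORTS.

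The other collagens, 9 genes and 13 probes, were called at about the rate of all genes. Of the 8 genes and 9 probes tested, Col6a2 was higher and Col7a1 lower by gene, near the 12.9% and 11.4% of all tested genes, and the median difference was 0.14. Col6a2 is 1 of the chains of type VI collagen, a microfibril near basement membranes. It read -0.13, -0.21 and -0.14 in wild type and 0.37, 0.19 and 0.24 in SPORTS, with no overlap. The difference was 0.42 ± 0.06 (SE; limma adjusted p = 0.00607), and 0.40 with slide row as a block, where the call was lost (adjusted p = 0.0661).

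Col7a1 was dim, at -4.07, -4.07 and -3.86 in wild type and -4.47, -4.39 and -4.23 in SPORTS. Every SPORTS array lay below every wild type array, with a difference of -0.36 ± 0.09 (SE; limma adjusted p = 0.0355). The difference was -0.21 with normexp. Leaving out any 1 array except SPORTS replicate 3 ended the call, with differences from -0.40 to -0.29 in those cases.

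Fibril-associated members, which sit on the surface of other fibrils, gave no gene call (limma, 2 of 3 genes with an unadjusted p under 0.05). Col9a1, a type IX chain, was lower in SPORTS on each of 3 probes, but they differed in size. The brightest, A_43_P16279, gave -0.10 ± 0.03 (SE; limma adjusted p = 0.101). A_64_P074649 read -4.80, -4.43 and -4.61 in wild type and -4.97, -5.31 and -5.12 in SPORTS, a difference of -0.52 ± 0.12 that was called lower (limma adjusted p = 0.0334). The block on slide row ended that call (adjusted p = 0.177). With normexp the size was -0.22. The dimmest, A_43_P11136, was not tested, with group means of -5.67 and -5.91.

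Col9a2, the partner of Col9a1, overlapped between groups, with an interval from -0.26 to 0.19. Its SPORTS arrays were spread from -0.45 to -0.08, wider than the wild type range of -0.25 to -0.20. Col14a1, a collagen of the fibril surface in soft connective tissue, read -4.14, -4.11 and -4.31 in wild type and -3.73, -4.03 and -3.76 in SPORTS on probe A_64_P093189. The difference of 0.34 ± 0.10 (SE) did not pass (limma adjusted p = 0.0608), although the groups did not overlap. With normexp the size was 0.17 and the gene was called. Its other probe was above background on 1 of 3 arrays of each group and was not tested.

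Col18a1, counted here among the other collagens, encodes a basement membrane collagen whose end fragment is endostatin. It read -1.996, -2.03 and -2.05 in wild type and -1.73, -1.95 and -1.88 in SPORTS. The groups were apart, but the difference of 0.17 ± 0.06 (SE) did not pass (limma adjusted p = 0.119). Col23a1, a collagen that spans the cell membrane, had the widest fitted difference of the family and the least certain, at 0.90 ± 0.36 (limma adjusted p = 0.136). Its brighter probe, A_44_P456479, read -5.37, -4.56 and -4.20 in wild type and -3.31, -4.02 and -4.10 in SPORTS, so that wild type replicate 3 and SPORTS replicate 3 nearly met. With slide row as a block the difference was 0.39. The other Col23a1 probe, A_64_P097892, was well above background on 2 arrays of each group and was not tested. Its groups overlapped, from -6.73 to -5.56 in wild type and from -5.95 to -5.42 in SPORTS.

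Col8a1, a chain of the hexagonal lattice under endothelium, read -3.92, -3.91 and -3.71 in wild type. In SPORTS it read -4.31, -3.57 and -3.31, so that replicate 1 was below every wild type array and the other two above. Without that array, which was also lowest for choroid plexus markers, the difference of Col8a1 was 0.41 in place of 0.12. The part of choroid plexus tissue in this value was not tested. Col13a1, another collagen that spans the membrane, was above background on 2 of 3 arrays in each group and was not tested, with means of -5.45 ± 0.62 in wild type and -5.52 ± 0.24 in SPORTS (SD, n = 3).

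**Figure D3:**
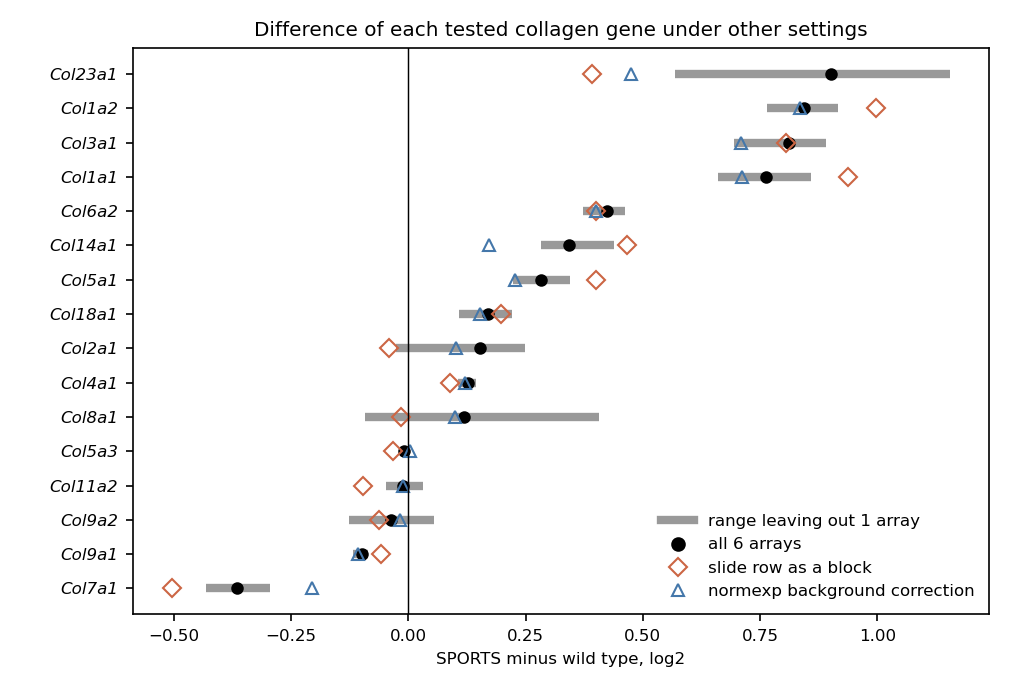
Difference of the 16 tested collagen genes (log2, SPORTS minus wild type) with all 6 arrays (filled circles), with slide row as a block (diamonds) and with normexp background correction (triangles); the grey bar spans the values when 1 array was left out. Col1a2, Col1a1 and Col3a1 stay at 0.66 or above in each of these, while Col2a1 and Col8a1 cross 0.

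Within groups the 4 collagens called higher shared their highest array but not their lowest. For Col1a1, Col1a2, Col3a1 and Col6a2, the highest wild type array was replicate 1 and the highest SPORTS array was replicate 1. However, the wild type arrays of Col3a1 were nearly level, as were wild type replicates 1 and 3 of Col6a2 (-0.130 and -0.136). The lowest arrays were replicate 3 of both groups for Col1a1 and Col1a2 and replicate 2 of both groups for Col3a1 and Col6a2. SPORTS replicates 2 and 3 of Col1a2 were level (2.465 and 2.464). Col7a1, called lower, was instead lowest on replicate 1 in SPORTS, with wild type replicates 1 and 2 level. As a median over these 4 genes, the SPORTS arrays lay 0.98, 0.68 and 0.68 above the wild type mean of each gene, and the wild type arrays between -0.07 and 0.09. Without SPORTS replicate 1, the count of collagen genes called higher was again 4, against 8.05% of all tested genes, and none was called lower (7.92% of all). With slide row as a block 2 genes were called higher, Col1a1 and Col1a2 (4.03% of all tested genes), and none lower (4.31% of all).

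Genes that make, modify and cross-link collagen were taken from a list of 32. Of 22 tested, 6 were higher and 1 lower, with a median difference of 0.09. This count and those of the lists that follow stand against 12.9% of all tested genes higher and 11.4% lower, or 8.05% and 7.92% without SPORTS replicate 1. Without that array 2 of the 22 were higher and none lower. Pcolce, whose product enhances the trimming of fibrillar procollagen, rose by 0.69 ± 0.08 (SE; limma adjusted p = 0.00344). Loxl1, a lysyl oxidase that cross-links fibres, rose by 0.57 ± 0.08. Smaller rises were seen for the collagen-folding genes Fkbp14 (0.31), Serpinh1, the collagen chaperone (0.25), and P3h4 (0.18). P4ha3, a prolyl hydroxylase subunit, fell by 0.44 ± 0.10. With slide row as a block 1 of these genes, Pcolce, was called (adjusted p = 0.0315).

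Of 11 tested genes for the breakdown of collagen, 4 were higher and 2 lower, and 2 and 1 without SPORTS replicate 1. The inhibitor gene Timp1 rose by 0.78 ± 0.14 (SE; limma adjusted p = 0.0137), the collagen uptake receptor gene Mrc2 by 0.54 ± 0.08 and the membrane protease gene Mmp14 by 0.49 ± 0.10. Another inhibitor gene, Timp3, rose by 0.31 ± 0.06. Fap, a fibroblast surface protease gene, and the gelatinase gene Mmp2 fell by 0.53 and 0.28. None of these 6 was called with slide row as a block (adjusted p from 0.0553 to 0.158).

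Of 6 tested collagen receptor genes none was called (limma, 1 with an unadjusted p under 0.05). Their median difference was -0.05. Among partners of collagen in basement membranes, 3 of 10 were higher and 1 lower, and 1 and 1 without SPORTS replicate 1. Sparc, which encodes a collagen-binding protein, rose by 0.45 ± 0.09 (SE), the linker gene Nid2 by 0.37 ± 0.09 and the laminin gene Lamb2 by 0.34 ± 0.07. None of these 3 was called with slide row as a block (adjusted p from 0.149 to 0.187). Of 11 tested genes of TGF-beta signalling, a pathway known to act on collagen genes, 4 were higher and 1 lower. None was called with the block, and 1 was higher and 1 lower without SPORTS replicate 1.

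Markers of the cell types that make collagen moved as follows. Of 15 tested meningeal and fibroblast markers, 9 were higher and 1 lower, and their summed signal ran from 17.7 to 20.3 over wild type arrays and from 24.1 to 26.5 over SPORTS arrays, in multiples of the 75th percentile. None of these markers was below background on all arrays. Dcn, which encodes the collagen-binding proteoglycan decorin, rose by 1.12 ± 0.05 (SE; limma adjusted p = 0.000143), and the meningeal transcription factor gene Foxc2 and the proteoglycan gene Fmod by 0.89 and 0.73. Ogn, another proteoglycan gene of the meninges, fell by 0.92 ± 0.11. With slide row as a block 7 were higher and 1 lower, and without SPORTS replicate 1, the array that stood apart, 5 were higher and 1 lower. The block sets SPORTS against wild type replicate 3, the lowest wild type array for most of these 7, among them Foxc2 and Fmod. Their differences with the block were larger, at 1.18 and 0.94. For Dcn that array was the highest of wild type, and the difference with the block was 1.07. The marker list shifted by a median of 0.61, 0.36 and 0.39 on the SPORTS arrays, with replicate 1 highest as for the called collagens. The part of meningeal tissue in the collagen differences was not tested.

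Vascular markers shifted less. Of 12 endothelial markers, 3 were higher, Pecam1 (0.26 ± 0.04, SE), Tie1 and Esam, and the summed signal ran from 10.1 to 10.6 over wild type arrays and from 11.0 to 11.6 over SPORTS arrays. In the fit that blocks on slide row none of these 3 was called. Flt1 was at -1.46 in that fit, a value set by wild type replicate 3. Its signal was -3.53, -3.81 and -2.30 in wild type and -3.67, -3.84 and -3.77 in SPORTS. Over all 6 arrays Flt1 was not called (-0.54, limma adjusted p = 0.383). Without SPORTS replicate 1, 1 endothelial marker was higher. Of 11 mural cell markers 3 were higher and 1 lower: Anpep rose by 0.48, Myh11 by 0.27 and Acta2 by 0.26, while the pericyte gene Rgs5 fell by 0.40. With the block only Anpep of these 4 was called (adjusted p = 0.0123). Wild type arrays summed to 4.62 to 4.81 and SPORTS arrays to 4.74 to 5.13, so that the groups overlapped. Astrocyte markers summed to 48.1 to 51.7 on wild type arrays and to 56.8 to 58.1 on SPORTS arrays, with 3 of 8 called higher, Gjb6, Aqp4 and Aldh1l1. Such sums weigh bright markers most, here among them Aqp4, which rose by 0.57. The other 5 astrocyte markers were not called, and the median difference of the 8 was 0.20. With the block Gjb6 kept its call (adjusted p = 0.0378), while Aqp4 (0.0539 for the adjusted p) and Aldh1l1 (0.0552) lost theirs. Of 9 choroid plexus markers none was called (limma, 0 with an unadjusted p under 0.05). Among 10 oligodendrocyte lineage markers 2 were higher, among 8 microglia and macrophage markers 1 was lower, among 8 neuron markers 2 were lower and among 6 blood cell markers 3 were higher. With the block the oligodendrocyte and neuron calls were lost, and 1 microglia marker was lower and 3 blood cell markers higher.

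Of 4 tested bone and cartilage markers, Cnmd was called higher (limma adjusted p = 0.000238), at -5.66, -5.33 and -5.91 in wild type and -2.24, -2.54 and -2.31 in SPORTS. It was well above background on 2 of 3 wild type arrays, so that the wild type level lay at the limit of detection and the size of the difference is uncertain. The markers Comp, Sp7 and Acan did not pass. None of 6 tested cerebellum markers was called (limma, 1 with an unadjusted p under 0.05). Of 4 tested pituitary and pineal markers none was called either (limma, 1 with an unadjusted p under 0.05), and Prl and Gh1 were not well above background on any array.

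**Figure D4:**
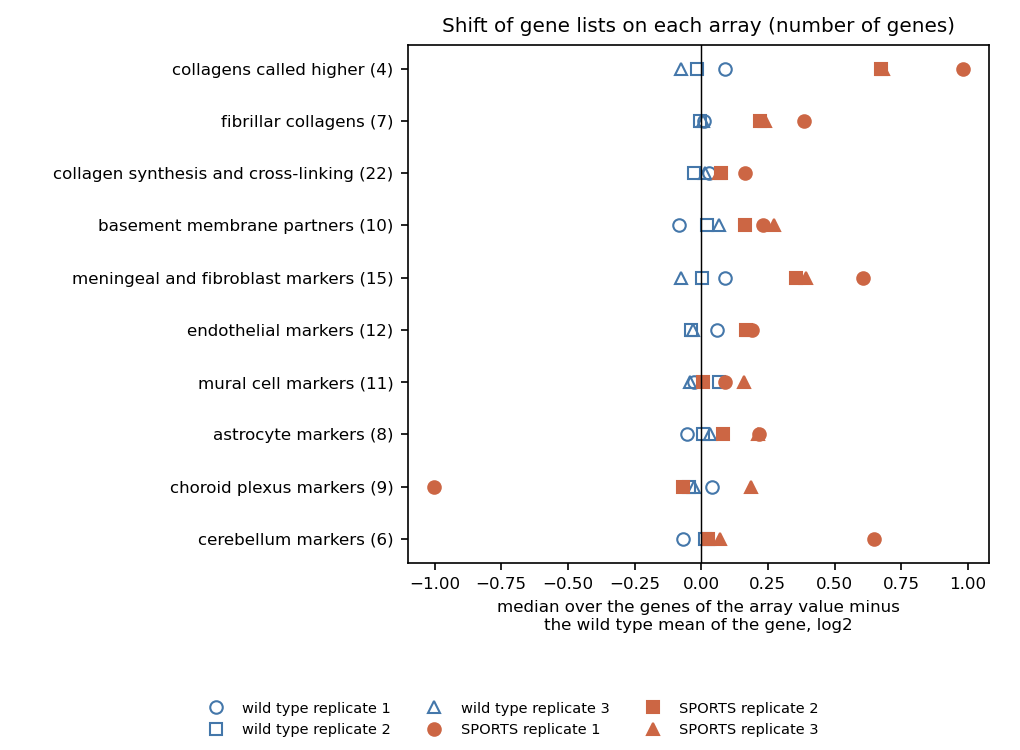
Shift of gene lists on each array: the median over the genes of a list of the array's value minus the wild type mean of that gene (log2), with open symbols for wild type and filled symbols for SPORTS. The collagens called higher were chosen by this difference and lie at 0.68 to 0.98 in SPORTS; meningeal and fibroblast markers lie at 0.36 to 0.61, and SPORTS replicate 1 stands apart, far below the other arrays, for choroid plexus markers.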

How the data were processed

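Each Cy3 array was read by the authors with Agilent Feature Extraction 10.10.1.1, per the file headers, and its processed intensity is background-subtracted and detrended within that array. The deposited table holds the same intensity values times 1 factor per array, and 0 columns of other samples. Of 58717 non-control spots, 3075 outlier-flagged values over the arrays were left out. Spots of a probe were averaged as log2 values, and each array's 75th percentile over spots was subtracted. Testing required that, in at least 1 group, every array had over 0.5 of the spots of a probe well above background, which kept 20658 probes. Symbols came from RefSeq transcript accessions (GRCr8) and matched 18005 probes. The array design uses another genome build, so no probe positions are given; the upstream sequences carry GRCr8 coordinates. The groups were compared by the two-sided moderated test of limma 3.58.1 in R 4.3.3 with Benjamini-Hochberg adjustment. The samples are separate rats per the series' design.

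The procedure was tested on simulated data. Members follow from gene symbols alone, but the choice of the collagen family, its members, the gene lists and the naming rule was made with earlier results of these data known. The rule names every collagen gene, the called genes with up to 6 of the largest differences in the synthesis, breakdown, receptor and basement membrane lists, and up to 4 markers per cell type. Markers in the brain check came from the design. Values of some genes counted in the lists are not reported here. The uncalled bone and pituitary markers were picked with their values in view. Alternatives were normexp (offset 50), a median shift, quantile normalisation, the deposited table, other filters, outlier spots kept, a trended robust variance, slide row, the mean of a gene's probes and leaving out each array. Taking the 75th percentile over distinct probes was added after seeing the data.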

Additional observations from a re-analysis of the deposited data

How the results depend on the processing

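Col1a2 kept its direction and its call in all 18 alternatives (difference from 0.77 to 0.998), and Col1a1 in 17. The 18 are not separate checks. The deposited table must repeat the main fit, because its factor per array is removed by the scaling. The block and row 2 alone give a probe the same difference. For a gene with 1 tested probe, such as Col1a2, the mean of a gene's probes repeats the main difference. The count of 4 collagen genes called higher was 2 with slide row as a block, 1 within slide row 2 and 7 with the mean of a gene's probes, and the count of 6 probes was 3 and 1 with the block and within row 2. The block adds a term to a fit on 6 arrays, and the difference it gives a probe is that within row 2. Row 2 holds 1 wild type array, assumed to vary like the others. Of genes called with the block, Col1a1, Col1a2, Pcolce and Anpep had their lowest wild type signal on that array, while Dcn and Gjb6 did not. The count of 1 gene called lower was 0 with normexp, without the filter on dim probes, with the block and within row 2, 2 with the mean of a gene's probes, and 0 to 1 when 1 array was left out. The count of 2 probes called lower was 1 with normexp, 0 without the filter, with the block and within row 2, and 0 to 1 when 1 array was left out. The median difference of basement membrane collagens, 0.13, was 0.09 with a median shift (0.0950), with the block (0.0893) and within row 2 (0.0893), 0.25 with the mean of a gene's probes and 0.11 to 0.24 when 1 array was left out. That of the other collagens was -0.0167 within row 2 and 0.0746 to 0.198 when 1 array was left out. Sign changes were all of uncalled genes. Over all 6 arrays Col5a3, Col9a2 and Col11a2 had differences near 0, while those of Col2a1 (0.15 ± 0.15, SE) and Col8a1 (0.12 ± 0.25) were imprecise. Col2a1 and Col8a1 were at -0.0403 and -0.0167 with the block and within row 2. When 1 array was left out, differences ran from -0.0467 to 0.0316 for Col11a2, -0.0266 to 0.25 for Col2a1, -0.0189 to 0.0033 for Col5a3, -0.0915 to 0.406 for Col8a1 and -0.126 to 0.0542 for Col9a2, and normexp turned Col5a3 to 0.0030. In the main fit the basement membrane class, which holds type IV chains only, had 1 tested gene, Col4a1. Which genes were tested changed with the setting, and the medians changed with them. Without SPORTS replicate 2 Col4a1 itself was at 0.11, against the class median of 0.24. The other collagens had a median of 0.09 with the block, against -0.0167 within row 2. The cause of the remaining shifts was not tested. Probes at the limit of detection had sizes that depended on background correction. No paired analysis was possible because the labels number the rats of the groups separately and share only 1 number.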
